A study of Mus musculus with 12 samples.

Results

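Pigk, Pigc and Pigf were the genes of glycosylphosphatidylinositol (GPI) anchor synthesis listed with YTHDF1 CLIP peaks in mouse striatum, 3 of the 1247 genes in either of the tables analysed here. Pigk and Pigc had been picked by name because earlier results on these data listed them, and Pigf was added because its symbol has the same form (Pig and 1 letter). The peak counts therefore chose the members, and the levels below are a description with no test. YTHDF1 is a reader protein of the RNA mark N6-methyladenosine, and CLIP-seq sequences the RNA that is crosslinked to a protein by ultraviolet light and precipitated with an antibody against it. All mice were wild type on the C57BL/6J background and were given cocaine or saline. Neither the labels nor the design text states the dose, the time, the age of the mice or the number of mice per library. There were 12 samples in 4 groups of 3, of which the 3 CLIP libraries from cocaine and the 3 CLIP libraries from saline have values here. The 6 libraries of input RNA were not used here, and a peak count can therefore follow the abundance of the RNA as well as its binding.

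A GPI anchor is a glycolipid that is built step by step on the membrane of the endoplasmic reticulum and then attached as a whole to the tail end of a protein, which it holds at the outer face of the cell. The first sugar is added by a transferase complex to which Pigc belongs. Pigf is needed for adding ethanolamine phosphate near the end of the assembly, where it partners the transferases Pigo and Pigg. Pigk is the catalytic, cysteine protease subunit of the GPI transamidase, which cuts the protein and joins it to the finished anchor together with Gpaa1, Pigs, Pigt and Pigu. In brain many adhesion proteins of axons and synapses carry such an anchor, among them contactins, glypicans and the IgLON family.

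The value of a gene is the number of peaks the authors counted in it in each library. Libraries are numbered 1 to 3 here from the column order, because the column names show no replicate. The cocaine libraries held 25528, 24770 and 24912 listed peaks and the saline libraries 3789, 3720 and 3944. The read depth behind them is unknown, and no source says that libraries came from separate animals, so a call below measures only the spread between these libraries, which may be technical. A gene is listed for cocaine only if its mean is above 6 peaks and for saline only if it is above 1, with at least 1 peak in every library, so a missing gene is not a gene without peaks. Of 14 markers of striatal neurons, Gnal and Gad1 were listed (14.3%). Of 20 glial and endothelial markers 4 were listed (Cnp, Cx3cr1, P2ry12 and Pecam1, with no astrocyte marker). Over all these markers 17.6% were listed, against 3.33% of all protein-coding genes. Markers of neurons and of other cells were both among them, so the listed genes do not single out a cell type.

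Pigk, the transamidase subunit, was among the genes with most peaks in both treatments. Its peaks numbered 294, 335 and 229 in the cocaine libraries and 29, 28 and 40 in the saline libraries. The lowest cocaine library was 5.72 times the highest saline library, and the groups did not overlap. The same held for 77.7% of the genes in both tables, so the gap in raw peaks is what most of those genes show. Cocaine libraries averaged 286.0 ± 53.5 peaks and saline libraries 32.3 ± 6.66 (SD, n = 3 each). Pigk was 4th of 1049 genes by mean in cocaine, below Fgfr2, Ctnna3 and a gene without a symbol (ENSMUSG00000092329), and 12th of 449 in saline. In single libraries it ranked between 4 and 7 in cocaine and between 7 and 17 in saline. The coefficient of variation of its libraries was 18.7% in cocaine, where 81.2% of listed genes had a larger one, and 20.6% in saline, where 80.2% did. Genes with many peaks vary little in these tables. The 50 genes nearest to Pigk in mean cocaine peaks, a wide range of 69.0 to 458.0, had a median coefficient of 13.4%. The exact 95% Poisson interval of cocaine library 2 ran from 300.0 to 373.0 and that of library 3 ended at 261.0; such intervals cover counting error only. Libraries 2 and 3 of cocaine therefore differed by more than counting error, while the 3 saline intervals overlapped.

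Pigc, the subunit of the first transferase, was listed for cocaine alone. It had 66, 49 and 29 peaks, a mean of 48.0 ± 18.5 (SD, n = 3). Library 1 was the highest and library 3 the lowest, 2.28 times apart, although the library totals were nearly equal. The Poisson interval of library 1 (51.0 to 84.0) did not meet that of library 3 (19.4 to 41.6). This spread is common in the table, where 42.1% of listed genes had a ratio of highest to lowest library at least as large. The coefficient of variation was 38.6%, against a median of 22.6% over the 50 genes nearest in mean. Pigc was 88th of 1049 genes by mean. Among the 798 genes listed for cocaine alone, 7 had more peaks.

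Pigf, the ethanolamine phosphate step partner, was also listed for cocaine alone and varied most. It had 36, 16 and 9 peaks, a mean of 20.3 ± 14.0 (SD, n = 3). The highest library was 4.0 times the lowest, a ratio reached by 16.6% of listed cocaine genes, and the coefficient of variation of 68.9% was exceeded by 11.4%. Over the 50 genes nearest in mean the median coefficient was 32.7%. All 3 members thus varied more than the middle one of their 50 nearest genes, which for Pigk span a wide range of means. Without library 1 the mean share of listed peaks fell from 0.0806% to 0.0504%. As for Pigc, library 1 was the highest and library 3 the lowest. This order was found in 15.7% of the listed cocaine genes. Pigk did not share it, since its highest cocaine library was library 2.

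**Figure D1:**
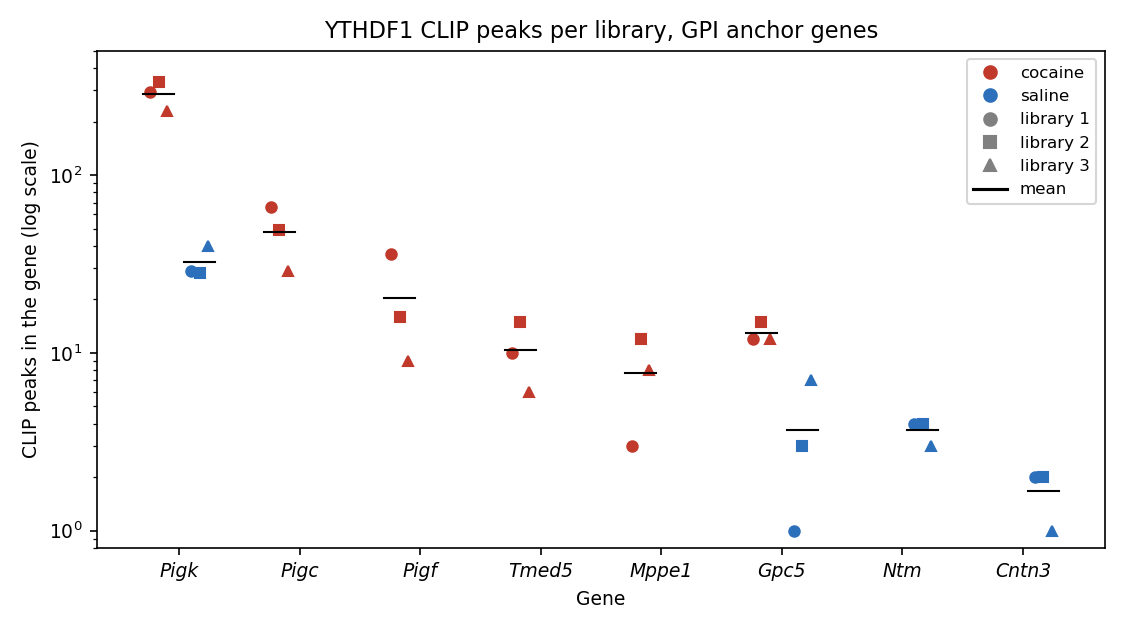
CLIP peaks per gene (log scale) in each library for every listed gene of GPI anchor synthesis, remodelling and the anchored proteins, cocaine in red and saline in blue, with the mean of 3 libraries as a bar. Pigk lies above 200 peaks in every cocaine library and at 28 to 40 in saline. Pigc and Pigf have values for cocaine alone and are highest in library 1.

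Genes of like peak level show how often a gene such as Pigc or Pigf is missing from the saline table. Of the 50 genes whose cocaine means were nearest to that of Pigc (37.3 to 59.7 peaks), 31 were listed for saline (62.0%). Those 31 had a median of 9.0 peaks in saline. Of the 50 nearest to Pigf (19.7 to 21.3 peaks), 15 were listed for saline (30.0%). Of the 50 nearest to Pigk (69.0 to 458.0 peaks), 49 were. Absence from the saline table was thus the less frequent state at the level of Pigc and the more frequent one at the level of Pigf. What the saline libraries held for Pigc and Pigf is not known beyond the listing rule, and no fold was computed for them.

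The change of Pigk between treatments was then described as a ratio of raw peaks and as a difference in share of peaks. The raw ratio of its means was 8.85, against a median of 4.54 over the 251 genes in both tables (interquartile range 3.0 to 6.63), and 26 of those genes had a larger ratio. In a fit across the shared genes that scales the libraries by their peaks in 202 tested genes (edgeR, with TMM factors, which align the libraries on the bulk of the genes), the log2 difference in share, cocaine minus saline, was 0.84 (SE 0.21), where the median over the tested genes was -0.02. The share of Pigk was higher in cocaine on this scale, as a description. In that fit 10.4% of the tested genes had a higher share in cocaine and 17.8% a lower one at an adjusted p under 0.05. No other gene of GPI synthesis, remodelling or anchored proteins was in this fit. Gpc5, the other such gene in both tables, fell under its filter on low counts; without the filter its log2 difference was -0.38 (SE 0.58, edgeR adjusted p = 0.746 over 251 genes). With totals over all listed peaks as the scale the difference of Pigk was 0.43 (SE 0.21) and the median of all tested genes -0.43, with 4 genes called higher and 47 lower in place of 21 and 36. Without TMM factors the median was 0.19, with 31 called higher and 29 lower. Set against the median of the tested genes, the Pigk value was 0.86, 0.86 and 0.87 in these fits. They use the same genes and counts and differ only in the scale of each library, which moves all genes nearly alike. Their agreement is therefore built in and tells nothing about how firm the Pigk value is. Without cocaine library 2, in which Pigk was highest, the difference was 0.51 (SE 0.20) and its distance from the median of the tested genes 0.42. That distance was 0.63 without cocaine library 1, and 0.72 without library 3, in which Pigk was lowest. With a cocaine library left out only 103 to 108 genes were tested, so the median is over another set of genes. With a saline library left out the distance was 0.86 to 1.08, over 240 or 241 tested genes.

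**Figure D2:**
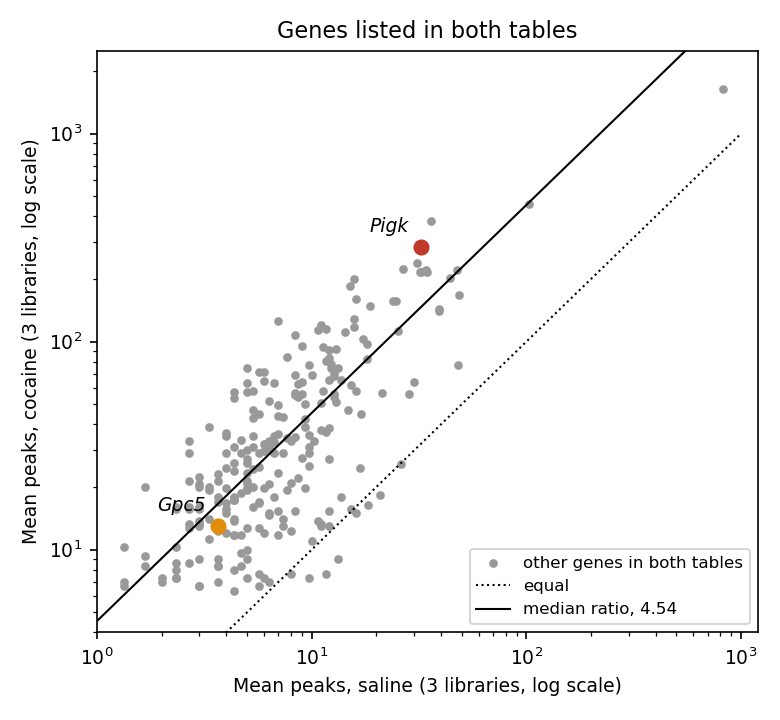
Mean peaks in cocaine (vertical) against saline (horizontal) for the 251 genes in both tables, both axes on a log scale. The dotted line marks equal counts and the solid line the median ratio of 4.54; Pigk lies above the solid line at a ratio of 8.85 and Gpc5 below it at 3.55.

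The share of Pigk in plain percent depended on which peaks were put in the denominator. Of all listed peaks, Pigk held 1.15%, 1.35% and 0.919% in the cocaine libraries and 0.765%, 0.753% and 1.01% in the saline libraries, with exact 95% binomial intervals as wide as 0.726 to 1.38% in saline library 3. The lowest cocaine library was below the highest saline library, so the groups overlapped, and the ratio of mean shares was 1.35. Over the 251 genes in both tables the median ratio was 0.69, and 6.37% of them had every cocaine library above every saline library. In saline the gene without a symbol named above held 21.6% ± 1.38 of all listed peaks, and in cocaine 6.56% ± 0.551 (SD, n = 3 each). With that gene left out of the totals the mean shares of Pigk were 1.22% ± 0.227 in cocaine and 1.08% ± 0.209 in saline, a ratio of 1.13, and the groups overlapped again. Of the peaks of genes in both tables, by contrast, Pigk held 2.11%, 2.43% and 1.65% in cocaine and 0.891%, 0.881% and 1.18% in saline, with no overlap and a ratio of mean shares of 2.1. On this denominator 17.9% of the 251 shared genes had every cocaine library above every saline library, and the median ratio was 1.07. Genes in both tables held 55.3% of listed cocaine peaks and 85.8% of listed saline peaks. The cutoffs of the tables differ, and their part in these shares was not tested.

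**Figure D3:**
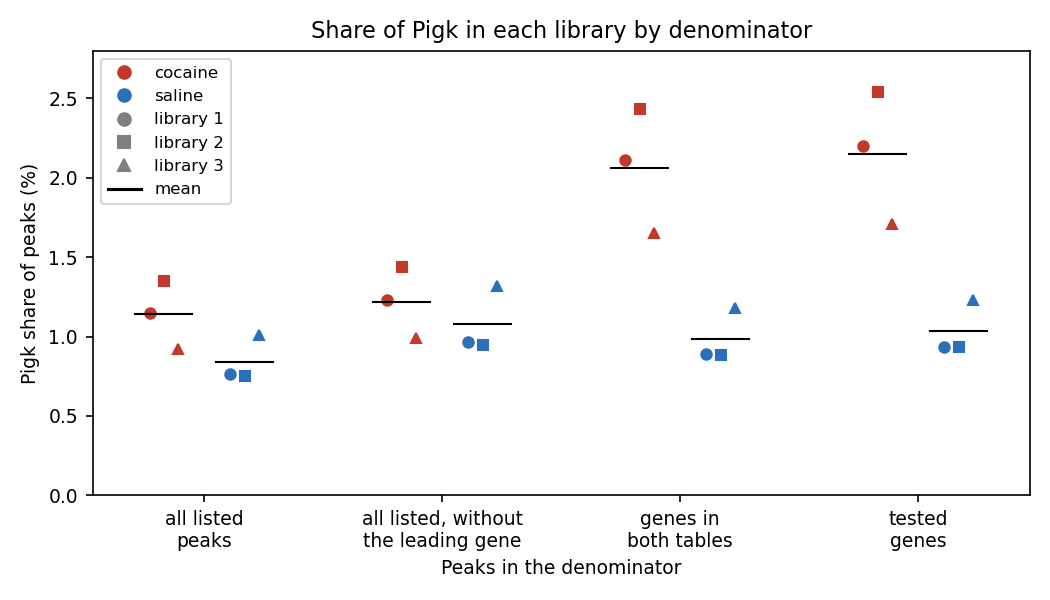
Share of peaks that fell in Pigk (percent, vertical) in each library under 4 denominators (horizontal), cocaine in red and saline in blue, with the mean of 3 libraries as a bar. The treatments overlap over all listed peaks, with or without the leading gene, and are apart over the genes in both tables (lowest cocaine 1.65%, highest saline 1.18%) and over the 202 tested genes (1.71% and 1.23%).

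The rest of the pathway was mostly missing from both tables. Of 28 genes of GPI synthesis with a RefSeq entry, the 3 members were listed (10.7%), against 3.33% of all protein-coding genes. All 3 were in the cocaine table, which lists 2.58% of coding genes, and Pigk was in the saline table, which lists 1.33%. The list holds the members that the choice was made on, so this share supports nothing. By role, 1 of 8 genes of the first transferase was listed (Pigc), 1 of 12 genes of the later steps (Pigf), 1 of 5 of the transamidase (Pigk) and 0 of 3 of mannose donor synthesis. The other transamidase subunits Gpaa1, Pigs, Pigt and Pigu were in neither table, and neither were Pigo and Pigg, the partners of Pigf, nor Piga, the catalytic subunit of the first transferase. Of 14 genes that remodel, carry or release anchored proteins, Tmed5 and Mppe1 were listed, both for cocaine alone. Tmed5, a cargo receptor of the secretory pathway, had 10, 15 and 6 peaks. Mppe1, a phosphatase-like enzyme that trims the anchor, had 3, 12 and 8 peaks. Their means were 10.3 and 7.67, below the median of 12.7 over listed cocaine genes, with Mppe1 close to the cutoff of 6. Both were highest in library 2.

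Of 80 genes whose proteins carry a GPI anchor, 3 were listed (3.75%), near the share of all coding genes. Gpc5, a glypican proteoglycan, had 12, 15 and 12 peaks in the cocaine libraries and 1, 3 and 7 in the saline libraries. These groups did not overlap, as in 77.7% of the genes in both tables, and the ratio of its means, 3.55, was below the median of 4.54. Ntm, an IgLON adhesion protein, had 4, 4 and 3 peaks and Cntn3, a contactin, had 2, 2 and 1, both for saline alone and both below the level that the cocaine table lists. At a mean above 6 peaks in both tables, 0 of these genes remained for saline and Gpc5 remained for cocaine. The median over all genes listed for saline was 4.0 mean peaks, so most of them fall under that cutoff as well. The share of all coding genes at that cutoff was not computed, so this loss says nothing particular about anchored proteins. None of 31 genes of N-glycan assembly and transfer, which shares a dolichol-linked mannose donor with GPI synthesis, was listed. As 3.33% of all coding genes were listed in either table, 0 of 31 says little about that pathway.

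Gene length did not order the members by peaks. Pigk spans 128842 bases, Pigf 28143 and Pigc 4273, and the middle gene in length had fewest peaks. Per kilobase of gene, Pigc had 11.2 ± 4.33 peaks, Pigk 2.22 ± 0.415 and Pigf 0.723 ± 0.498 in cocaine (SD, n = 3). By mean, all 3 lay above the upper quartile of the 565 listed coding genes, whose median was 0.28 and upper quartile 0.712. For Pigc this place was fixed by the cutoff of 6 mean peaks, since any listed gene as short lies above that quartile. Of the 565 genes, 550 are longer than Pigc. For Pigf the place above the quartile rested on library 1, since its libraries had 1.28, 0.569 and 0.32 peaks per kilobase. Only Atp5o, Igsf8, Rnf26, Epo and Lrrc4, named here after their values were seen, had more peaks per kilobase than Pigc among these coding genes. All of them are short, from 2271 bases (Rnf26) to 7477 (Igsf8), against a median of 49928 over the listed coding genes. Under a cutoff on peaks a short gene ranks high per kilobase, so this order follows length and is no measure of dense binding. At the mean of Pigc, 1 peak falls on every 89.0 bases of the gene. How peaks were assigned to genes is not stated, so a peak need not lie inside the gene it was counted for. The other 17 Pig genes of the pathway spanned 3973 to 145321 bases; Pign, the longest, is longer than Pigk and Pigw, the shortest, is shorter than Pigc, and both are in neither table. Over the 565 listed coding genes the Spearman correlation of peaks with gene length was 0.0419 across genes, which share the same libraries. Genes under the cutoff of 6 mean peaks are missing from it, so it does not tell how peaks go with length over all genes.

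**Figure D4:**
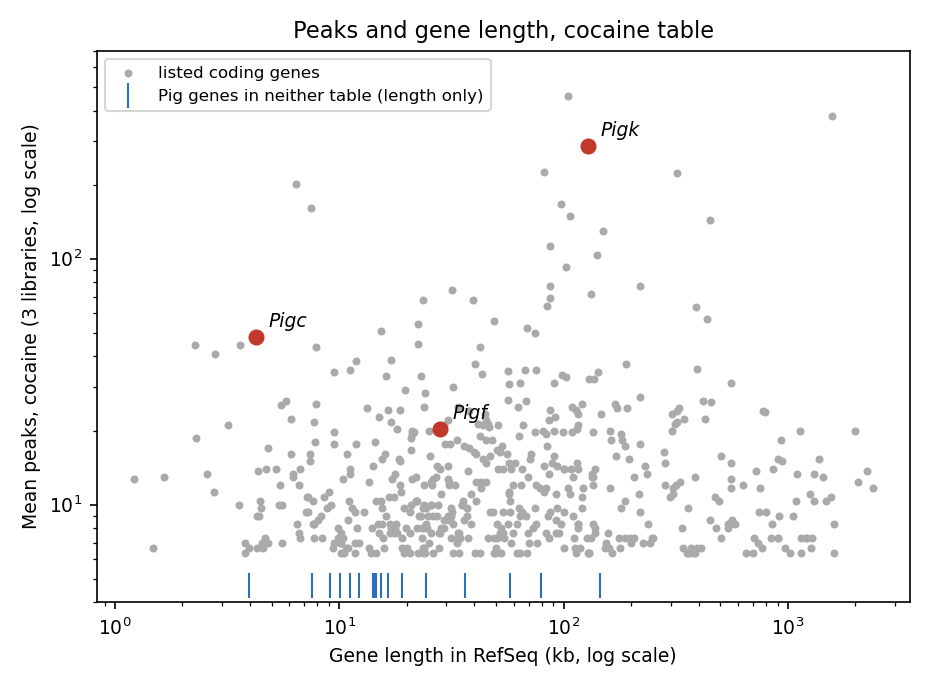
Mean cocaine peaks (vertical) against gene length in kilobases (horizontal), both on a log scale, for the 565 listed coding genes in grey with Pigk, Pigc and Pigf in red. Blue ticks give the lengths of the 17 Pig genes in neither table, which have no peak value; they span the range of the listed ones.

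Each member overlaps another coding gene in RefSeq (GRCm38.p6, which is mm10). Pigk lies on chromosome 3 from 152714085 to 152842926, and St6galnac5, a sialyltransferase gene, covers 23042 bases of it (17.9%). The non-coding Gm40181 and the pseudogene Rpl29-ps1 lie within Pigk. Pigc lies on chromosome 1 from 161969188 to 161973460, wholly inside 4930558K02Rik, and 8989 bases from Dnm3, the gene of a neuronal dynamin. Pigf lies on chromosome 17 from 86997259 to 87025401, shares 2811 bases (9.99%) with Rhoq, a small GTPase gene, and ends 159 bases from Cript. None of the overlapping or flanking genes was in either table under its symbol. The tables give no position and no strand of a peak, so peaks of a member and of the gene it overlaps cannot be told apart. Overlap with a coding gene was found for 49.7% of the coding genes in the cocaine table, for 17.6% of all coding genes and for 6 of the 17 Pig genes in neither table. Listed genes without a symbol, 327 for cocaine and 102 for saline, could not be placed. Among the placed ones, the nearest to a member were far off for Pigk (Nexn, 447734 bases away, with 8.0 ± 5.0 peaks in cocaine) and for Pigf (Msh6, 949648 bases away, with 6.67 ± 3.51). For Pigc it was Dnm3os, the opposite-strand RNA of Dnm3, which lies 244162 bases away and had 15, 6 and 6 peaks in cocaine alone.

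**Figure D5:**
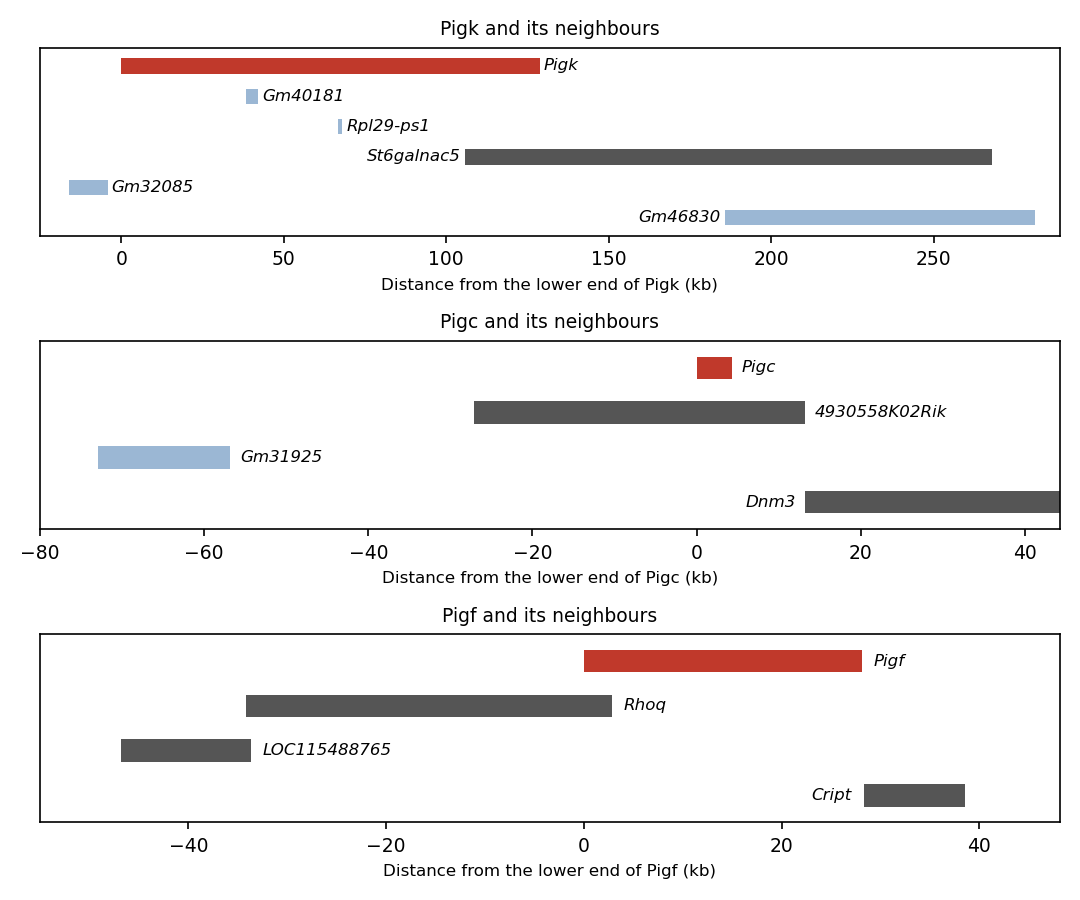
Gene maps around Pigk, Pigc and Pigf (red), with coding neighbours in dark grey and other neighbours in light blue, by distance in kilobases from the lower end of each member in RefSeq; strand is not drawn. St6galnac5 covers 17.9% of Pigk, 4930558K02Rik contains Pigc, and Rhoq covers 9.99% of Pigf.

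The genes most like Pigk over the 6 libraries, by the root mean square difference of log2(peaks + 1) among 167 other named genes in both tables, were the non-coding 9630028H03Rik (0.334), the ubiquitin ligase gene Ube3a (0.38), the alpha-catenin gene Ctnna3 (0.38), the non-coding Sorbs2os (0.403) and the potassium channel gene Kcnq1 (0.431). The first of them had 216 ± 14.6 peaks in cocaine and 34.3 ± 8.02 in saline. Among 548 other named genes listed for cocaine alone, those most like Pigc over 3 libraries were the non-coding Gm38505 (0.20), the erythropoietin gene Epo (0.30), 4930545L23Rik (0.385), Traf3ip2 (0.489) and Cenpp (0.498). Gm38505 had 56, 44 and 25 peaks and Epo 50, 40 and 33, in the same order of libraries as Pigc. The alike genes were chosen on these same libraries, so a shared order is built in. The others did not keep that order: 4930545L23Rik had 60, 46 and 46 peaks, Traf3ip2 39, 54 and 38, and Cenpp 46, 31 and 35. Those most like Pigf were the non-coding Gm11714 (0.297) and 4930595D18Rik (0.325), the DNA repair gene Xpa (0.33), Hacd4 (0.345) and the replication gene Orc3 (0.358), of which Orc3 had 30, 19 and 6 peaks.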

How the data were processed

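The authors deposited 1 table per treatment holding, for each gene, the count of CLIP peaks (whole numbers) in 3 libraries, per the file headers and values, and their mean, a deposited score used only to check the columns. Cutadapt, STAR and the mm10 build are named in the submitters' processing notes, with no versions. CLIPper appears only in the table names; how it was run, whether input was used and how peaks were assigned to genes are not stated there. The table of a treatment was found by the letter c or s in its name. Repeated lines of a gene (1084 lines for 1049 genes, 463 for 449) were counted as 1 gene. Symbols were matched to RefSeq (890 of 894).

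The members and gene lists were chosen with earlier results of these data known. The 251 shared genes were fitted with edgeR 4.0.16 in R 4.3.3 (TMM, filterByExpr, quasi-likelihood test, Benjamini-Hochberg adjustment, FDR 0.05). The code was tried on counts simulated for the genes of the cocaine table, with no listing cutoff. That trial differs from the shared genes, which passed 2 unlike cutoffs, and so does not check the calls made here. The SE is the log2 difference over the root of F. DESeq2 1.42.0 was an alternative. The planned rule named the members, the listed genes of the lists, overlapping and nearest genes and the 5 most alike genes; the nearest listed genes and the 50 genes of like level were added after the data were seen. Intervals are exact at 95%. Sequences of the bound RNA were not used here.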

Additional observations from a re-analysis of the deposited data

How the results depend on the processing

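The log2 difference in share of Pigk stayed positive in the 12 other fits and fell to 0.43 with totals over all listed peaks; leaving out 1 library at a time gave 0.51 to 1.1. Genes called higher in cocaine numbered 21, but 4 with totals over all listed peaks, and 6 to 21 with 1 library left out, the lowest without cocaine library 3. Genes called lower numbered 36, but 23 with DESeq2, and 17 to 28 with 1 library left out. Leaving out a library also changed how many genes passed the count filter (103 to 241 against 202). The mean share of Pigk in cocaine was 1.14% of all listed peaks and 2.06% of the peaks of genes in both tables, and 1.04 to 1.25% with 1 library left out. In saline it was 0.844%, and 1.08% without the gene with most peaks, and 0.759 to 0.89% with 1 library left out. The share of Pigc was 0.157 to 0.228% and that of Pigf 0.0504 to 0.103% with 1 library left out. At a mean above 6 peaks in both tables, 0 genes of anchored proteins remained for saline in place of 3. That cutoff lies above the median of 4.0 mean peaks over all genes listed for saline. No paired analysis was possible because the columns carry no replicate number. The number of reads, which is not known, and 3 libraries per treatment limit all values.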
